A study of Homo sapiens with 4 samples.

Results

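Intergenic USF1 peaks that were called in list 2 (IP 2 against input 2) and overlapped no peak of list 1 (IP 1 against input 1) numbered 10525, of 27325 peaks in list 2. They were chosen by their calls and positions. Each lay on chromosomes 1 to 22 or X, shared no base with a list 1 peak, and had its centre outside every protein-coding gene and over 1 kb from every end of one (RefSeq, GRCh38.p14). Since the calls chose them, their fold enrichments, tag counts, scores and false discovery rates are given as a description, with no test. Only their sequence and their place relative to non-coding genes were left unused by the choice. Lack of overlap was common throughout list 2. On the same chromosomes, 21968 of 27313 list 2 peaks overlapped no list 1 peak, as did 10525 of the 12575 intergenic ones.

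All 4 libraries came from Huh7 cells, a line from a human hepatocellular carcinoma, made to overexpress USF1 (per the series' design text). IP 1 and IP 2 held chromatin precipitated with an anti-FLAG antibody, and input 1 and input 2 held chromatin that was not precipitated. The study set out to find the targets of USF1 in this line. The labels do not say whether replicates 1 and 2 were separate cultures, and a control precipitation was not analysed here.

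USF1 is a basic helix-loop-helix leucine zipper (bHLH-ZIP) factor that binds DNA as a dimer, most tightly at the palindromic E-box CACGTG. It is best known at promoters, where it acts in lipid, glucose and lysosomal gene programmes of the liver and other tissues. DNA far from protein-coding genes holds enhancers, which act at a distance, as well as the promoters of long non-coding RNAs (lncRNAs) and of small RNA genes such as those of tRNAs.

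The sequences that carry the E-box within the list 2-only intergenic peaks are shown first, for the lncRNA promoters where the peak's summit, its point of highest tag density, and an E-box stood in the same window. RefSeq promoter windows of 300 bases (250 before to 50 after the annotated start) were read on the transcript's strand, 5′ to 3′. Of 19 such peaks, the 8 of highest fold are printed. Capitals mark CACGTG, and the builds and sequences are RefSeq's (GRCh38.p14).
EP300-AS1, chr22:41197533-41197658, minus strand: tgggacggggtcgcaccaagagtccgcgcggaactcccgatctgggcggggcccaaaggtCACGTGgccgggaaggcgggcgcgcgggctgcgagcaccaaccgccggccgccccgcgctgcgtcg
LOC101928764, chr13:21298085-21298210, minus strand: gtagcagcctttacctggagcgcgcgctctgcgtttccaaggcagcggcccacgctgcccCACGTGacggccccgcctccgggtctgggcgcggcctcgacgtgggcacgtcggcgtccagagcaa
LOC105376949, chr3:9600659-9600784, minus strand: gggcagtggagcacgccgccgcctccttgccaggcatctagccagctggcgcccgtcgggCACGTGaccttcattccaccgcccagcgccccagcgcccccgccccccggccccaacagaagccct
LOC124903070, chr12:60119404-60119511, plus strand: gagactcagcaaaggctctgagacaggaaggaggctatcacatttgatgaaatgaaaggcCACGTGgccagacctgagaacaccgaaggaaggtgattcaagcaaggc
SLC38A4-AS1, chr12:46383451-46383576, plus strand: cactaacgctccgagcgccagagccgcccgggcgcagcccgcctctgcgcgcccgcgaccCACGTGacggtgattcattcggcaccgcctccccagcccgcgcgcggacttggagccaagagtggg
LINC02851, chr9:6704205-6704330, plus strand: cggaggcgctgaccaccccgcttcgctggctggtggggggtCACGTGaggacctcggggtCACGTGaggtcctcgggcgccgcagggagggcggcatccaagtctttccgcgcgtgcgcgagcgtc
LINC01285, chrX:118839473-118839598, plus strand: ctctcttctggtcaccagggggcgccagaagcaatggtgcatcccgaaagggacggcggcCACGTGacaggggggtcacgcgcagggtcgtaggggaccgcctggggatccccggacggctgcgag
FIRRE, chrX:131830594-131830701, minus strand: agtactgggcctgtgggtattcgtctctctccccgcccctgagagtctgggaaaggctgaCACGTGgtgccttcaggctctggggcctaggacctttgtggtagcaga

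The EP300-AS1 promoter held the strongest of these peaks. This lncRNA is antisense to EP300, the gene of a histone acetyltransferase. Its peak, chr22:41197140-41198116, had 78 IP tags, a fold of 14.03 and an FDR of 0.13%, and the E-box centre lay 20.5 bp from the summit. Fold here is the peak caller's ratio of IP tags to the tags it expected from input and local background, and FDR is the caller's estimate of the percent of false peaks at that score. At LOC105376949, an uncharacterised lncRNA on chromosome 3, the E-box was 1.5 bp from the summit of a peak with 62 tags and a fold of 9.41. The peak at SLC38A4-AS1, 10715 bp from the amino acid transporter gene SLC38A2, was the richest in tags of the 8, with 228 over 2447 bp at a fold of 8.97. Fold and tag count thus did not rank these promoters in the same order.

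LINC02851, near the histone demethylase gene KDM4C, carried a pair of E-boxes in its window, both in the stretch above, and its peak had 80 tags and a fold of 8.78. LOC124903070 shows how thin some calls were, with 32 tags, a fold of 9.21 and an FDR of 12.63%. FIRRE is an X-linked lncRNA involved in nuclear organisation. Its peak had 56 tags and a fold of 7.44, and its E-box lay 204.5 bp from the summit, the farthest of the 19. No CACGTG was in the windows at LINC01322 (fold 9.21, 44 tags) and LINC00886 (fold 8.7, 95 tags), although these windows cover only part of each peak.

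Over all promoter windows, the E-box was more frequent where a summit lay and more so at higher fold. CACGTG, which reads the same on both strands, stood in 5.41% of the 12829 lncRNA windows of RefSeq (95% Wilson interval 5.03 to 5.81%) and in 8.34% of the 22131 protein-coding windows. List 2-only intergenic peaks touched 256 lncRNA windows of 233 genes, and 32 of these windows (12.5%, interval 9.0 to 17.1%) held it. Of the 97 windows that held the summit, 20 (20.6%, interval 13.8 to 29.7%) did. The last interval lies above the share over all lncRNA windows. These intervals cover counting error only, and windows of the same gene can overlap and share a sequence.

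Split by fold, 3 of 36 summit windows (8.33%) held the E-box under peaks of fold under 5, 9 of 40 (22.5%) at 5 to under 7, and 8 of 21 (38.1%) at 7 or more. The intervals of the lowest band (2.87 to 21.8%) and the highest band (20.8 to 59.1%) overlap slightly. By FDR, 13 of 40 summit windows (32.5%) held it at 5% or less and 7 of 57 (12.3%) above 5%. At intergenic peaks shared by both lists the share of summit windows was 33.3% (13 of 39), and at intergenic peaks found only in list 1 it was 9.52% (2 of 21, interval 2.65 to 28.9%). The shared and list 1-only peaks were not split by fold.

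**Figure D1:**
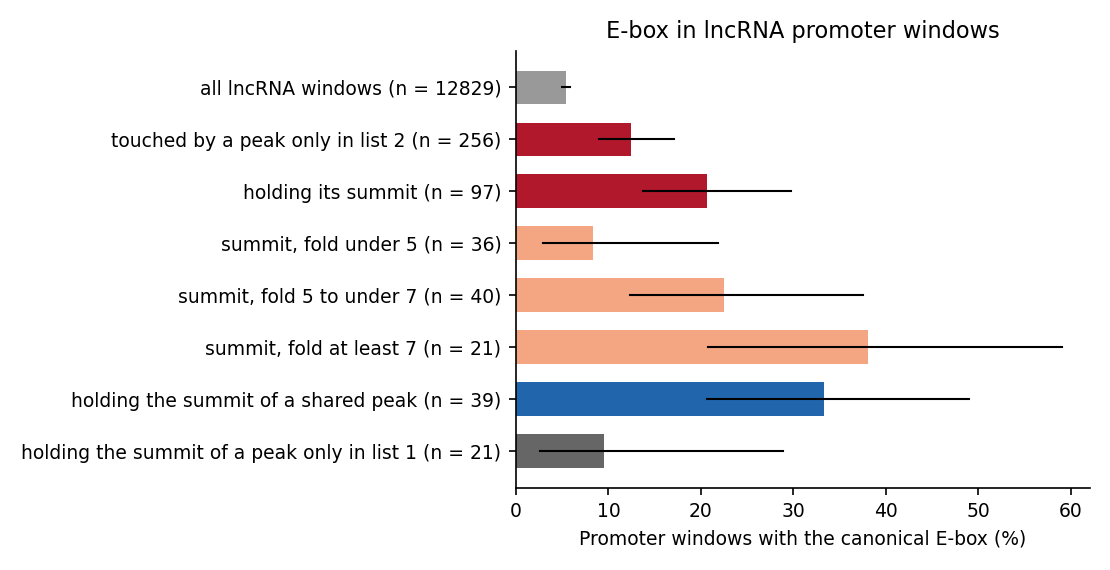
Percent of 300-base lncRNA promoter windows that hold the canonical E-box, with 95% Wilson intervals as lines and the number of windows in each label. Among windows holding the summit of a list 2-only peak the share goes from 8.33% at fold under 5 to 38.1% at fold 7 or more, beside 5.41% over all lncRNA windows and 33.3% for shared peaks. The groups are not matched for GC content.

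Base composition moved with this comparison. The median GC content was 50% over all lncRNA windows, 55.8% in those touched and 60.7% in those holding a summit. Within windows of at least 60% GC, 9 of 50 summit windows (18%, interval 9.77 to 30.8%) held the E-box, beside 8.59% of all lncRNA windows of that GC. At 50 to under 60% GC the shares were 25.8% (8 of 31) and 7.62%, and below 50% GC they were 18.8% (3 of 16) and 2.61%. In each of the 3 GC bands the share in summit windows was thus higher, and its interval (13.7 to 43.2% and 6.59 to 43.0% in the lower bands) lay above the share of all windows. The splits by fold, FDR and list were not matched for GC. Median GC of summit windows rose with fold, from 57.5% in the lowest band to 62.3% and 65.7%. By FDR it was 64.8% at 5% or less and 58.3% above. Shared peaks had 64% and list 1-only peaks 47.7%.

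The bases beside the motif and its place were read next. GTCACGTG on either strand, which contains the E-box and one of the flanks known to favour USF binding, was in 10.3% of summit windows (10 of 97, interval 5.70 to 17.9%), in 28.2% of those of shared peaks (11 of 39, interval 16.5 to 43.8%) and in 1.24% of all lncRNA windows. Where an E-box was present, its centre lay a median of 20.5 bp from the summit in the 19 list 2-only peaks, with 11 within 50 bp. In the 13 shared peaks with an E-box the median was 7.5 bp, and 12 were within 50 bp.

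Other promoter motifs were searched on both strands in the same windows. The GC box GGGCGG, bound by SP factors, was in 45.4% of summit windows against 25.6% of all lncRNA windows, but this difference was not seen at matched GC (72% against 70.2% at 60% GC or more, and 25.8% against 21.1% at 50 to under 60%). The CCAAT box, bound by NF-Y, was in 35.1% against 34.4%, while summit windows of shared peaks had it in 66.7%. The motif TGANTCA, bound by AP-1, was in 18.6% against 10.3% (12% against 3.49% at 60% GC or more, 32.3% against 10.3% at 50 to under 60%, and 12.5% against 14.1% below). The cyclic AMP response element TGACGTCA was in 4.12% (4 of 97) against 1.15% (interval of the former 1.62 to 10.1%). At 60% GC or more it was in 4% (2 of 50, interval 1.10 to 13.5%) against 2.41%. At 50 to under 60% GC it was in 6.45% (2 of 31, interval 1.79 to 20.7%) against 1.12%, and below that in 0 of 16 windows. By GC band the CCAAT box was in 30%, 38.7% and 43.8% of summit windows from high to low GC, beside 23.8%, 33.9% and 40.6% of all windows, each within its counting interval.

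Enrichment at the list 2-only intergenic peaks was low and narrowly spread. Fold ranged from 2.39 to 18.06 with a median of 5.51, and 80% of the peaks lay between 3.86 and 7.79. Shared intergenic peaks had a median fold of 7.3 in list 2 and reached 53.46, and all of list 2 is the background for the counts that follow. FDR was at most 5% for 1959 list 2-only intergenic peaks (18.6%, interval 17.9 to 19.4%), beside 30.8% of all list 2 peaks and 52.9% of shared intergenic ones. Fold was at least 8 for 913 (8.67%), beside 13.5% of all list 2 peaks and 39.2% of shared intergenic ones. Low fold was not particular to intergenic peaks among the list 2-only ones. Those within 1 kb of a protein-coding gene end and those in gene bodies, farther inside genes, had median folds of 5 and 5.31. Fold was at least 8 for 6.43% and 6.81% of these, and FDR at most 5% for 45.9% and 19.2%. In list 1, by its own FDR, 9 of 5049 list 1-only intergenic peaks (0.178%) were at most 5%, with a median FDR of 100%. That high FDR holds wherever those peaks are set beside the others. By score and fold, though, they were close to list 2-only intergenic peaks. Their median score was 64.56 beside 64.5, and 10.0% beside 8.67% had a fold of at least 8. The rule used these calls, so nothing further is read from the shares.

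**Figure D2:**
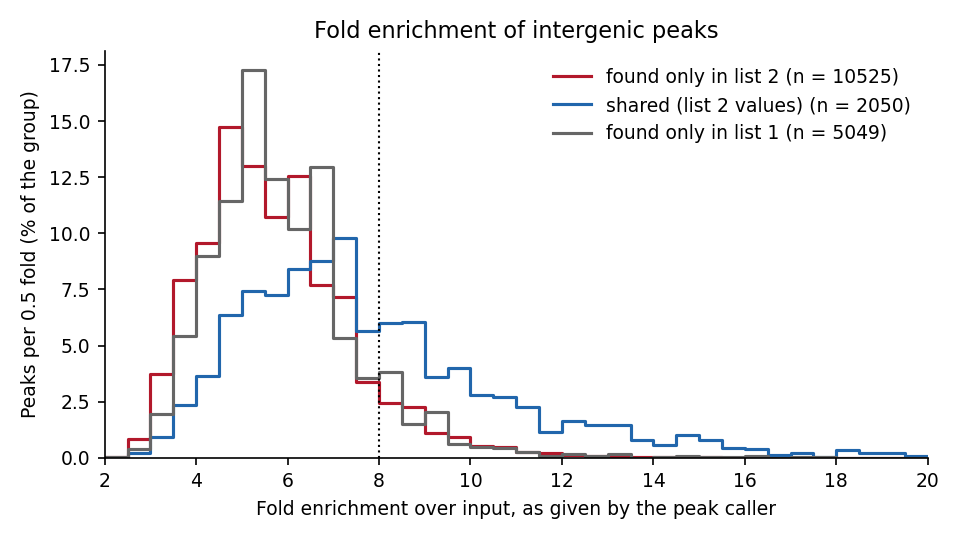
Fold enrichment over input, in steps of 0.5, as a percent of each group of intergenic peaks; the dotted line marks a fold of 8. Peaks found only in list 2 (median 5.51) and only in list 1 (median 5.77) pile up between 4 and 7, while shared peaks (median 7.3) extend to the right.

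The strongest list 2-only intergenic peaks were scattered over 9 chromosomes. The highest fold, 18.06 with 80 tags, was at chr8:125896819-125897783, 458898 bp from TRIB1, a pseudokinase gene tied to liver lipid metabolism. COL24A1, a collagen gene, had the next at 16664 bp (fold 17.71, 55 tags), in a peak of only 432 bp. The third, fold 17 with 78 tags, lay 289109 bp from the centrosome gene NEDD1 inside the lncRNA gene LOC101928912. These 3 each had an FDR of at most 0.19%.

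Below them came peaks nearest to FZD7, a Wnt receptor gene (15.58), QDPR, which recycles the cofactor tetrahydrobiopterin (15.46), ACP3, a phosphatase gene (15.4), and PCDH8, a protocadherin gene (15.24). The PCDH8 peak was the closest of the 10 strongest to a protein-coding gene, at 3135 bp from its end. The other 3 were nearest to BUD13 (14.88), the orphan nuclear receptor gene ESRRG (14.52) and the cadherin gene CDH11 (14.52). Of these 10 peaks, 6 were over 100 kb from every protein-coding gene. Every one of them also lay at least 21117 bp from any list 1 peak.

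High tag counts belonged to another set of peaks, broad and of moderate fold. The most tags, 1171, lay over 8820 bp at chr2:43223371-43232190, inside LINC01126 and 1174 bp from ZFP36L2, the gene of an mRNA decay factor, at a fold of 5.14. The next 4 were all on chromosome 5, at 931 tags near the zinc finger gene ZNF131, 919 near LOC124901163, 837 near the taste receptor gene TAS2R1 and 815 near the homeobox gene IRX1. The LINC01126 peak had the highest score of all 10525, 489.13, and an FDR listed as 0. The 4 on chromosome 5 had folds of 4.38 to 6.31, with FDRs of 1.38 to 1.76% except at IRX1, whose peak, 9379 bp wide, had 14.62%. The peaks richest in tags were thus not those of highest fold, and 4 of the 5 had an FDR of at most 5%.

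Across the 10525 peaks, fold was lower where width and tags were larger (Spearman's rho -0.44 with width and -0.36 with tags), and tags were higher where width was larger (0.91). These correlations are across peaks of a single pair of libraries, which are not independent replicates. The 1318 peaks of fold under 4 had a median of 73 tags over 1313 bp, and 5.92% of them had an FDR of at most 5%. The 205 of fold 10 or more had a median of 53 tags over 788 bp, and 94.1% had such an FDR. The 467 peaks of 2 kb or wider had a median fold of 3.86 and 163 tags, with 39.2% at that FDR. The peaks of lowest fold were thus the widest, and those of fold 10 or more were about as wide as all of them (median 785 bp) and mostly had a low FDR.

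**Figure D3:**
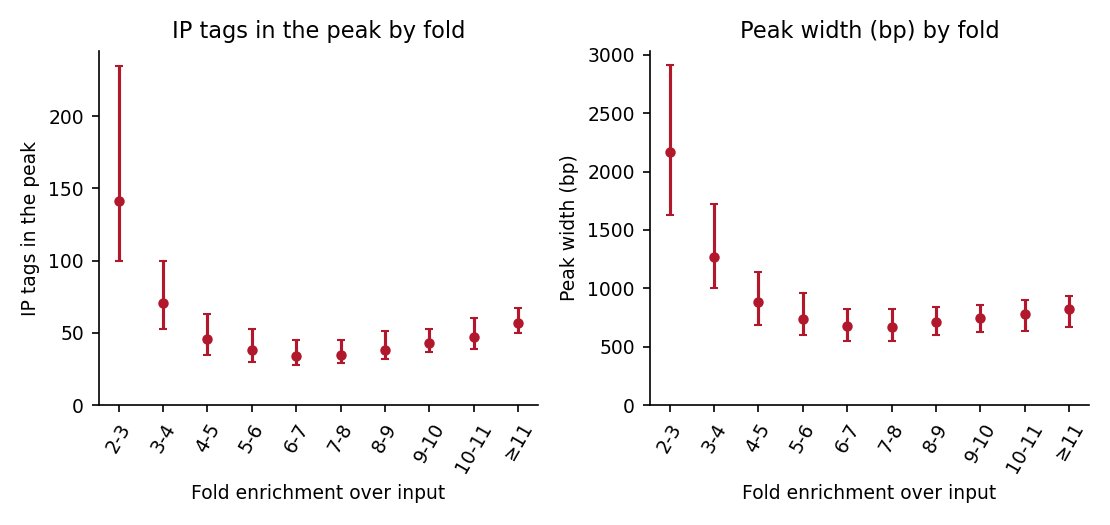
Median IP tags per peak (left) and median peak width in bp (right) of the list 2-only intergenic peaks in each fold band, with bars from the lower to the upper quartile. Both fall from fold 2 to 3 (141 tags, 2165 bp) to fold 6 to 7 (34 tags, 674 bp) and rise slightly at fold 11 or more (57 tags, 827 bp).

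At the edges of the rule, the values lay in the range of the other peaks. The peaks just inside the 1 kb distance lay 1001 bp from SP7 (fold 3), 1001 bp from TMEM205 (fold 6.58) and 1002 bp from CIAO2A (fold 4.84). Just outside were peaks 998 bp from G3BP1 (fold 4.96) and 997 bp from RNF111 (fold 6.02). The smallest gaps to a list 1 peak were 18 bp (nearest gene CDH10, fold 3.63) and 24 bp (CDH9, fold 3.2), while the smallest overlap that made a peak shared was 7 bp (KCNA4, fold 6.23). A list 1 peak lay within 1 kb of 192 and within 5 kb of 767 (7.29%), so most had no list 1 call nearby. The share within 5 kb was much the same over all list 2-only peaks (6.86%), with 6.65% in gene bodies and 5.98% at gene ends. The lowest fold, 2.39, was in a 4902 bp peak on chromosome 5 nearest to RAI14. DCN, the decorin gene, was nearest to the lowest score, 50, the caller's limit, with 22 tags.

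The median distance to the nearest protein-coding gene end was 71464 bp, and 4472 peaks (42.5%) lay over 100 kb away. Shared intergenic peaks had a median of 78727 bp, and list 1-only intergenic peaks one of 162513 bp with 61.1% over 100 kb. List 1-only peaks held 25% of their number on chromosome 5, as described below. At the near side, 1551 list 2-only peaks (14.7%) were within 10 kb of a gene end. No excess of 5′ over 3′ gene ends was seen close to genes: of 647 peaks at 1 to 5 kb from an end of known strand, 332 (51.3%, interval 47.5 to 55.1%) were at the 5′ end, and at over 100 kb the share was 50.4% of 3551. At 5 to 10 kb it was 56.0% of 563 (interval 51.8 to 60%), and at 10 to 50 kb it was 53.1% of 2334 (interval 51.1 to 55.1%), so 5′ ends led slightly at these middle distances. The lead at 10 to 50 kb was also seen at shared peaks (56.9%, interval 52.3 to 61.4%) and list 1-only peaks (54.6%, interval 51.0 to 58.0%). At 5 to 10 kb these had 48% of 100 and 54.2% of 168.

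**Figure D4:**
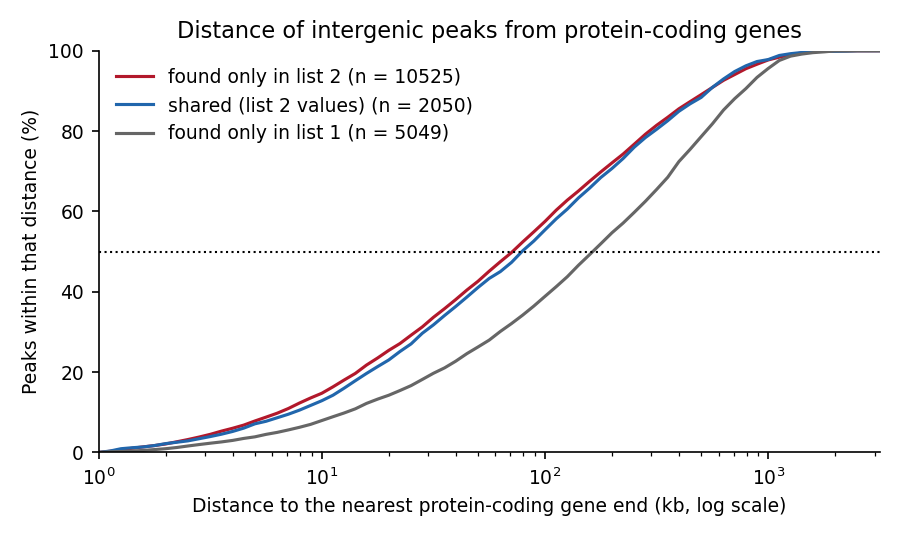
Cumulative percent of intergenic peaks within a given distance (kb, log scale) of the nearest protein-coding gene end. The curves of list 2-only and shared peaks run close together (medians 71464 and 78727 bp), and that of list 1-only peaks lies to the right (162513 bp).

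Distance varied with fold and width. The median was 39007 bp at fold under 4, 66256 bp at 4 to under 6 and 96449 bp at 6 to under 8, but 94665 bp at 8 to under 10 and 75092 bp at 10 or more. Peaks with an FDR of at most 5% had a median of 61623 bp and the rest one of 74015 bp. Peaks of 2 kb or wider lay a median of 32680 bp from a gene end, and those narrower than 600 bp lay 123364 bp away. Of these groups, the widest peaks were thus nearest to genes and the narrowest most distant, with no steady order by fold.

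Gene deserts, more than 1 Mb from every protein-coding gene end, held 241 peaks (2.29%), and shared intergenic peaks had 2.20% there. The farthest with an FDR of at most 5% lay 1833085 bp from AGA, a lysosomal enzyme gene on chromosome 4, with 39 tags and a fold of 11.69. SUCLG1, a citric acid cycle gene, was nearest to 2 of the 5 farthest, at 1787048 bp (fold 7.79) and 1513662 bp (fold 6.84). The others were nearest to PABPC4L (1587974 bp, fold 11.04, 58 tags) and to the glycogen branching enzyme gene GBE1 (1518376 bp, fold 8.85). Each of these 5 peaks was 611 to 1254 bp wide, with 39 to 60 tags.

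Non-coding genes, which the rule did not use, took in part of the peaks. The centre was inside a non-coding gene for 2698 (25.6%) and within 1 kb of an end of such a gene for 752 (7.14%, interval 6.67 to 7.65%). Near such an end were 9.66% of shared intergenic peaks (interval 8.45 to 11%) and 4.30% of list 1-only intergenic peaks (interval 3.77 to 4.89%), so the 3 intervals do not overlap. For 7495 list 2-only peaks (71.2%) the centre was outside non-coding genes and over 1 kb from their ends. The share near an end was 9.49% among the peaks with FDR of at most 5% (interval 8.27 to 10.9%) and 6.61% among the rest (6.10 to 7.15%). By fold it ran the other way, from 9.10% at fold under 4 to 3.90% at 10 or more (interval 1.99 to 7.51%). By width it was 12.6% at 2 kb or more and 4.79% under 600 bp.

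Most of these ends belonged to lncRNA genes. Within 1 kb of a lncRNA end were 521 peaks (4.95%), beside 7.41% of shared and 2.97% of list 1-only intergenic peaks. For 362 of them the strand was known, and 242 (66.9%, interval 61.8 to 71.5%) were at the 5′ end. Shared peaks were similar at 70% (70 of 100, interval 60.4 to 78.1%), whereas list 1-only peaks were at 47.9% (46 of 96, interval 38.2 to 57.8%). The intervals of list 2-only and list 1-only peaks do not overlap, and the former lay mostly at starts. Fold did not go with this, as its median was 5.31 at 5′ ends and 5.59 at 3′ ends.

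Beside EP300-AS1, the strongest peaks at a non-coding end were at the pseudogene SERPINA15P (fold 12.04) and the transcribed pseudogene MIPEPP3 (11.69). The MIPEPP3 peak is the one whose summit lay in the LOC101928764 window printed above. Next came LOC105373182, on chromosome X 181134 bp from ATP6AP2 (fold 11.18, 81 tags), LINC03063 (10.98) and LOC105375322 (10.91). ATP6AP2 encodes a partner of the vacuolar proton pump. LOC107985987, inside which a peak of fold 9.94 lay 2992 bp from the hedgehog ligand gene IHH, was also among the 10. All 10 had an FDR of at most 3.66%.

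Genes of tRNAs, which RNA polymerase III transcribes, also had peaks at their ends. Counting the nearest gene of the type within 1 kb of each list 2-only peak gave 33 of 431 tRNA genes (7.66%). For lncRNA genes it gave 515 of 17950 (2.87%). Both totals include genes in or beside protein-coding genes, where the rule allows no peak, so these shares do not rank the types. As a share of peaks, tRNA genes took 0.314% (33, interval 0.223 to 0.440%), beside 0.780% of shared and 0.0990% of list 1-only intergenic peaks. FDR was at most 5% for 16 of the 33, and their median fold was 4.9. The strongest, picked after the values were seen, were at TRN-GTT2-3 on chromosome 10 (fold 9.56, 43 tags, 97 bp from the gene), TRT-AGT5-1 (8.99, 66 tags) and TRR-TCG2-1 (7.71, 77 tags). TRT-AGT5-1 lies 222 bp from its peak's centre. The same peak is 1242 bp from the 3′ end of PER1, a core gene of the circadian clock.

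Other small RNA genes were counted in the same way, and the rule again allowed no peak inside protein-coding genes. At snoRNA genes, whose RNAs guide the modification of other RNAs, 13 peaks were found, with folds up to 8.85 and 3 at an FDR of at most 5%. They were at 13 of 1191 snoRNA genes and made up 0.124% of list 2-only peaks. The shares of shared and list 1-only intergenic peaks were 0.146% and 0.0792%. Of the 13 list 2-only peaks, the 7 at SNORD115 genes lie in a tandem array of near-identical copies, where reads can be hard to place. At miRNA genes there were 12 peaks (0.114%, beside 0.0488% of shared and 0.139% of list 1-only intergenic peaks), at 12 of 1911 genes. Their median fold was 4.69, and the highest was 7.08 at MIR573 (34 tags, FDR 13.68%). MIR212, MIR23A and MIR301B were among the 12 genes. None of 33 rRNA genes had a peak within 1 kb.

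The peaks were spread over every chromosome, in 2406 bins of 1 Mb, with a median of 3 per bin and 10 or more in 208 bins. As a share of all list 2 peaks on a chromosome they made up 19.0% on gene-dense chromosome 19 and up to 51.7% on chromosome 13. Another list 2-only intergenic peak lay within 50 kb of 53.6% and within 5 kb of 9.83%. Within their own groups, list 1-only peaks had 48.8% and 15.6%, and shared peaks had 18.0% and 4.24%. Such shares depend on the number of peaks in each group, which differs. The densest bin was chr2 at 104 to 105 Mb, with 30 peaks around POU3F3, a neural POU-domain factor gene, of which 2 had an FDR of at most 5%. Next was chr2 at 126 to 127 Mb, with 26 peaks around GYPC and TEX51. Both bins held many weak calls, with median folds of 5.17 and 4.51.

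Chromosome 5 stood apart in tag density. The third densest bin, at 3 to 4 Mb on chromosome 5 around IRX1, had 23 peaks with a median of 345 tags over 4333 bp at a fold of 3.9, and 12 had an FDR of at most 5%. Over the first 10 Mb of chromosome 5, 133 list 2-only peaks had a median of 91.2 tags per kb, and from 10 to 50 Mb 206 peaks had 89.3. From 50 Mb on, 602 peaks had 52.2 tags per kb, close to the 52.7 of the other chromosomes. Fold over input did not rise with this density. Its median was 4.33 in the first 10 Mb and 4.42 from 10 to 50 Mb, beside 5.51 from 50 Mb on and 5.57 on the other chromosomes. Shared peaks in the first 10 Mb and from 10 to 50 Mb had 109 and 93.5 tags per kb, so the high density was not limited to list 2-only calls. Their median folds there were 6.01 and 5.49, beside 7.35 on the other chromosomes. List 1-only intergenic peaks numbered 37 in the first 10 Mb and 920 from 10 to 50 Mb, where they had 59.9 tags per kb in IP 1. Without chromosome 5, list 2-only peaks had a median fold of 5.57, and a median distance of 67034 bp from genes.

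**Figure D5:**
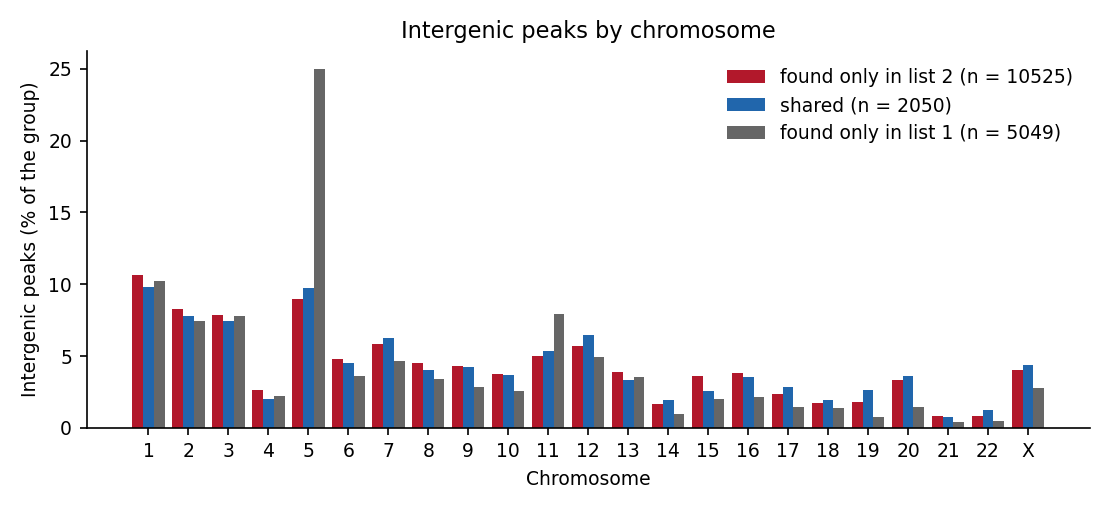
Percent of each group of intergenic peaks on each chromosome. List 2-only peaks follow shared peaks closely, with 8.94% on chromosome 5, where list 1-only peaks have 25%.

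Within 50 kb of their nearest protein-coding gene were 4482 peaks, and they named 3381 of 19835 genes (17.0%) as nearest. Lists of genes were read against that share and against the intergenic flank in which a peak could fall, which runs from 1 kb to at most 50 kb on each side, stops midway to the next gene, and has a median of 17.8 kb in all over all genes. All genes together had 7.89 peaks per Mb of flank. FAM174B, with 8, had the most peaks, of which 1 had an FDR of at most 5%. HS6ST1, ITPR2, LMCD1, NFIA and OLFM1 had 6 each.

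Clock genes, among which several are known to use E-boxes, had 9 of 21 (42.9%, interval 24.5 to 63.5%) with a peak and 20.5 peaks per Mb of flank, from 13 peaks. They were NPAS2, BHLHE40, RORB, CRY2, CRY1, RORA, PER1, HLF and TEF. The strongest lay on the 3′ side of PER1, with a fold of 8.99 and an FDR of 1.14%, and is the peak at TRT-AGT5-1. RORA, a nuclear receptor gene, had 7.08 at 28727 bp on its 5′ side (FDR 0.86%). TEF, a PAR bZIP factor gene, had 6.7 at 14632 bp on its 3′ side (FDR 1.53%). E-boxes were not read for the gene lists. Genes of lysosome and autophagy had 9 of 49 (18.4%), near the share of all genes, with 13 peaks per Mb over short flanks (median 9.07 kb). The strongest was 17061 bp from PSAP, the prosaposin gene (fold 10.29, 82 tags, FDR 0.12%), followed by CTSD, the cathepsin D gene (8.85 at 19110 bp), and GABARAPL1 (7.73 at 1016 bp).

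Genes that define hepatocytes had 4 of 38 (10.5%, interval 4.17 to 24.1%) with a peak, PROX1, CYP3A4, NR1H4 and FOXA2, and 3.33 peaks per Mb of flank. Their peaks were weak, at fold 6.73 for the liver factor gene FOXA2, 5.31 for the drug-metabolising CYP3A4 and 5.27 for the bile acid receptor gene NR1H4, with FDRs of 11.2 to 25.37% for these 3. Lipid and glucose genes had 6 of 34 (17.6%) and 8.47 per Mb. LPIN1, a phosphatidate phosphatase gene, had the highest fold of these (9.21 at 20254 bp, FDR 5.72%), and PPARG, a nuclear receptor gene, had 6.64. The share of genes with a peak in the liver and metabolic lists was therefore near or below that of all genes.

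Genes of homeobox, forkhead, SOX and GATA factors had 20 of 48 (41.7%) with a peak, but their flanks were long (median 70.0 kb) and their rate was 10.6 per Mb. GATA3 had 9.01 (FDR 0.74%), SOX9 8.19 (0.63%) and MEIS1 8 (0.79%). Neuronal and synaptic genes had 15 of 34 (44.1%), with a median flank of 98 kb and 7.33 peaks per Mb, close to the rate over all genes. CDH12, a cadherin gene, had 7.92 with 76 tags. High shares in these lists thus went with long flanks.

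Among genes of liver cancer and the cell cycle, 12 of 36 (33.3%) had a peak, at 11.6 per Mb, including EGFR with 3 peaks (7.32 at 11472 bp and 7.2 at 43776 bp) and the cyclin gene CCNE1 with 3 (6.53). Genes of bZIP factors had 13 of 41 (31.7%) at 11.3 per Mb, among them BACH1 (6.73) and FOSL2 (6.32). The bHLH-ZIP factors, the family of USF1, had 5 of 23 (21.7%) at 11.1 per Mb: MYCL, MITF, TFEB, MXI1 and MAX, of which MITF and TFEB are also on the lysosome list. MITF, a regulator of pigment cells and lysosomes, had peaks at 36388 bp (5.96) and 2143 bp (5.52), and MXI1 had 6.12. Markers of immune, endothelial and fibroblast cells had 6 of 26 (23.1%) at 6.20 per Mb, with PDGFRA, a growth factor receptor gene, at 10.63 (FDR 0.78%), THY1 at 8.41 and COL1A2 at 7.28. Nearest is a statement of position only, and which gene a peak acts on was not measured.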

How the data were processed

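Each IP was compared with the input of the same number by the authors using MACS 1.4.2 at a p cutoff of 1e-05, per the file headers, which gave 14300 peaks in list 1 and 27325 in list 2. Per the submitters' processing notes, Bowtie2, deepTools, HOMER and the build GRCh38 were used, at steps not given in the sources used here. Tags kept were 47165647 and 46345938 (IP 1, input 1) and 43942638 and 43562726 (IP 2, input 2), per the file headers. The authors deposited, for each peak, a count of IP tags, a fold (a ratio to the expected tags), a score (minus 10 times log10 of p) and an FDR as a percent. The tag count is not scaled to library size.

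A peak was shared if it overlapped the other list by at least 1 bp. Gene positions came from RefSeq (GRCh38.p14, 19835 protein-coding and 38125 non-coding genes). Of the gene rows, 544 that stand after chromosome Y were left out, since they carry scaffold positions, as were 590 immune receptor segments and 12 list 2 peaks off the chromosomes used. Strand came from promoter windows, which 15811 protein-coding genes had. No genome sequence was used, so E-boxes were read only in promoter windows. Shares carry 95% Wilson intervals. No test was run, because calls chose the peaks and each list is a single IP. Overlap and distance functions were tested on simulated intervals. Scripts ran under Python 3.11.15 (matplotlib 3.10.9, scipy 1.17.1, pandas 2.3.3, numpy 2.4.6).

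Named peaks are the 10 of highest fold, the 5 of most tags, the 5 of highest fold over 100 kb from genes, the 5 farthest with FDR of at most 5%, the 10 of highest fold at non-coding ends, the 3 densest bins, the lowest fold and score, and up to 3 in each of 10 gene lists. Promoters with sequences, and those named as lacking an E-box, were picked after their values were seen. Some genes that the rule takes are not reported here. Peaks, lists and rules were chosen with earlier results of these data known.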

Additional observations from a re-analysis of the deposited data

How the results depend on the processing

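Over 13 values and 72 alternatives, 50 alternatives stayed within 1.5 times the count or within the interval of the value, and 22 moved. The number of list 2-only intergenic peaks, 10525, was 1330 at a score of at least 100, 913 at a fold of at least 8 and 1959 at an FDR of at most 5%. Other definitions gave 7495 (all annotated genes in place of protein-coding ones) to 10549 (overlap of at least 50% of the smaller peak). Without replicate 1, so with every intergenic list 2 peak, the count was 12575, the median fold 5.69, the share with FDR of at most 5% 24.2%, the share with fold of at least 8 13.7%, the median distance 72808 bp and the share near a non-coding gene end 7.55%. Without replicate 2 there is no list 2, and no value could be given. The median distance was 85429 bp at over 5 kb from genes, 55638 bp at a score of at least 100 and 67034 bp without chromosome 5. The share near a non-coding gene end was 6.67% at over 5 kb and 10.7% at a score of at least 100. Another such peak lay within 50 kb of 14.1% at a score of at least 100. The E-box share of touched lncRNA windows was 20.6% with the summit inside, 21.3% for peaks of FDR at most 5%, 13.7% without chromosome 5 and 13.9% at a GC of at least 60%. The alternatives on chromosome 5, scaffold positions, FDR and GC were chosen after seeing the data. The planned E-box search around all summits was not run, as no genome sequence was used here. No paired analysis was possible because no test was run and each list is a single IP against its own input.

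Each list rests on 1 IP, so the spread between cultures is not in any interval. Tag counts near 20 leave wide counting error on a single peak's fold.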
